A study of Mus musculus with 6 samples.

Results

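The genes described here are the chemokines and chemokine receptors of mouse ear skin, as found in a table of gene expression by RNA sequencing. They were the rows whose symbol names a CC, CXC, CX3C or XC chemokine, a receptor of one of these classes, an atypical receptor or Ccrl2, with at least 10 reads summed over the 6 libraries. Of 54 genes with such a symbol, 52 had enough reads, among the 18422 genes of the table. These 52 were 31 ligands and 21 receptors. Cxcr1 and Cxcr5, with 8 and 7 reads in all, were the other two. The naming rule leaves out the near-identical Ccl21 copies, and also the chemokine genes Ccl27a, Ccl27b, Pf4 and Ppbp. Counts over the 52 genes do not cover any of these.

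The ecko group was 3 libraries from mice in which Vegfr2, the gene Kdr, had been deleted in endothelial cells, and the control group was 3 libraries from littermates. Mice of both groups were given tamoxifen, which switches on the deletion only where an inducible Cre recombinase is present, and ear skin was taken at postnatal day 21. The series describes tamoxifen courses that begin on postnatal day 1 or on postnatal day 10, and the labels do not say which course these mice had. The sources used here do not give the Cre driver. Nor do they say that each library came from a separate mouse, so p-values here reflect only how much these libraries vary, part of which may be technical.

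Chemokines are small secreted proteins that bind to matrix and cell surfaces and guide white blood cells along a gradient. They act through receptors coupled to inhibitory G proteins. Inflammatory chemokines are switched on by cytokines through NF-kB, STAT and interferon-response factors, while homeostatic ones are made steadily by stroma. Atypical receptors bind chemokines without G protein signalling and remove or transport them. In skin, keratinocytes, fibroblasts, dendritic cells and macrophages all make chemokines, and the vessel wall displays them to passing leukocytes.

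Libraries held 17423532 to 18054696 reads in ecko skin and 17255416 to 17594655 reads in control skin. Kdr, the deleted gene, averaged 2.59 ± 0.69 CPM (reads of the gene per 1000000 reads of the scaled library) in ecko skin and 30.1 ± 3.27 CPM in control skin (SD, n = 3 each). Reads of Y-linked genes marked ecko replicate 3 and control replicate 3 as female and the other 4 libraries as male. Markers of keratinocytes summed to 26392 to 29443 CPM in ecko skin and 23500 to 25241 CPM in control skin. All 6 endothelial markers and 3 of 5 lymphatic endothelial markers fell, by edgeR with adjusted p under 0.05. With one library left out at a time, 3 to 6 of the endothelial and 1 to 3 of the lymphatic markers fell. In bulk tissue, fewer cells of a type and less RNA per cell cannot be told apart, and this holds for each result below.

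In all, 3 chemokine system genes passed the test, each of them higher in ecko skin. They were Ccr2, the main receptor that brings monocytes into tissue, Ccl17, a ligand of CCR4 made by dendritic cells and keratinocytes, and Ccl20, the only chemokine ligand of CCR6. The test was the edgeR quasi-likelihood test with Benjamini-Hochberg adjustment over 14866 genes and a threshold of 0.05. Of the 52 genes, 40 had enough reads in enough libraries to be tested. Of those 40, 3 (7.5%) were called higher and 0 were called lower, while 0.686% of all tested genes were called higher and 1.08% lower. DESeq2 called 11 of the 52 higher and 0 lower, against 1.27% higher and 1.5% lower over the 15385 genes to which it gave an adjusted p. Some of the 52, such as Ccl3 and Cxcl13, got no adjusted p from DESeq2. At an unadjusted p under 0.05, edgeR placed 21 of the 40 (52.5%) higher and 1 lower, against 7.41% higher and 7.95% lower of all tested genes. Leaving out a library changed the count or the genes called. None was called without ecko replicate 2, only Ccr2 without ecko replicate 1 or without control replicate 1, and Ccr2 and Ccl20 without ecko replicate 3. Without control replicate 2 the 3 called were Ccr2, Ccl6 and Ccl9, and without control replicate 3 they were Ccr2, Ccl12 and Ccl22.

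Most chemokine system genes that did not pass lay on the same side. The log2 fold change was above 0 for 33 of the 40 tested genes (82.5%), against 49.5% of all tested genes. Its median was 0.43 over the 40 and -0.00 over all tested genes, and the 40 ranged from -0.40 to 2.87. In 21 of the 40 every ecko library lay above every control library, and in 1 every ecko library lay below, where 10.2% and 10.8% of all tested genes did so. The 22 tested ligands had a median of 0.49 and the 18 tested receptors a median of 0.36. The filter on low counts bears on these shares. It needed 3 libraries above 0.568 CPM, and Ccl5, Ccl12, Ccl17 and Cxcr3 reached that only with the help of ecko libraries. Xcl1, whose log2 fold change was the lowest of the 40, reached it only with the help of control libraries. Over all 52 genes, with no filter, the ecko mean was higher for 42 and lower for 10.

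**Figure D1:**
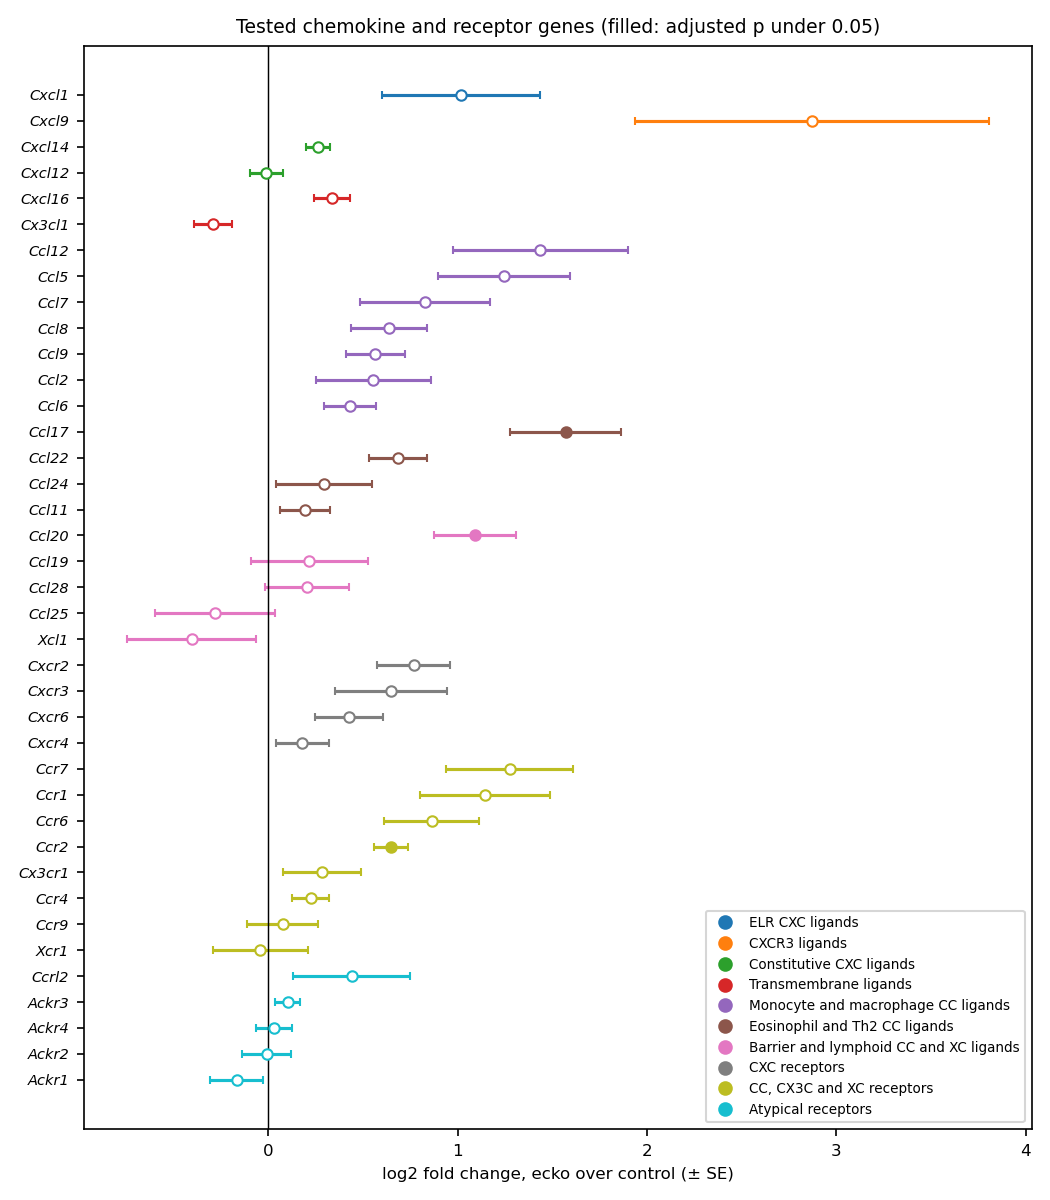
Log2 fold change of ecko over control for 39 of the 40 tested chemokine and receptor genes, with bars of 1 standard error, grouped by role; filled points passed the adjusted threshold. The 3 filled points are Ccr2 at 0.65, Ccl20 at 1.09 and Ccl17 at 1.57, and 32 of the 39 points lie above 0.

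Ccl17, also called TARC, and Ccl22, also called MDC, share the receptor CCR4, which is found on skin-homing T helper 2 and regulatory T cells. Ccl17 (Entrez 20295; GRCm38.p6 chromosome 8, 94809380 to 94812038) stood at 2.2, 1.66 and 1.45 CPM in ecko skin, against 0.693, 0.626 and 0.454 CPM in control skin. All ecko libraries lay above all control libraries. These levels rest on few reads, 38, 30 and 26 in ecko skin and 12, 11 and 8 in control skin. The mean was 1.77 ± 0.39 CPM in ecko skin and 0.59 ± 0.12 CPM in control skin (SD, n = 3 each), a log2 fold change of 1.57 (SE 0.29; edgeR adjusted p = 0.0328). Without any one of the 6 libraries the adjusted p was between 0.0586 and 0.133, while the log2 fold change stayed between 1.39 and 1.70.

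Ccl22 lies in the same gene cluster, 3 genes within 66.4 kb of chromosome 8 with Cx3cl1 between it and Ccl17. It stood at 14.0, 14.4 and 10.8 CPM in ecko skin, against 6.87, 7.80 and 9.70 CPM in control skin. The groups did not overlap, and the nearest pair was the female one, ecko replicate 3 and control replicate 3. The log2 fold change of Ccl22 was 0.68 (SE 0.15) with an edgeR adjusted p of 0.0659, just short of the threshold. Among the 4 male libraries alone it was 0.95, with an adjusted p of 0.0253. Their receptor Ccr4 stood at 17.6, 17.2 and 18.1 CPM in ecko skin, against 14.8, 13.8 and 16.6 CPM in control skin. Its 3 ecko libraries were close together and above the controls, with a log2 fold change of 0.22 (SE 0.10; edgeR adjusted p = 0.304). Foxp3, the defining factor of regulatory T cells, which carry CCR4, was the only one of 6 tested T cell markers called higher, with a log2 fold change of 1.20 (SE 0.25; edgeR adjusted p = 0.0496). The other 5 did not pass, and only 2 of the 6 had a log2 fold change above 0 (median -0.06). Cd3d, a subunit of the T cell receptor complex, was lower in every ecko library than in every control library, with a log2 fold change of -0.49 (SE 0.17; edgeR adjusted p = 0.219). Cd3e at -0.03, Cd3g at -0.09 and Lck at -0.14 were also below 0, and Cd4 was at 0.35. Without any one library Foxp3 missed the threshold, with adjusted p between 0.0594 and 0.179. The 7 T cell markers in the table, of 9 listed, summed to 32.6 to 35.7 CPM in ecko skin and 29.7 to 34.7 CPM in control skin, and their part in the Ccl17 result was not tested.

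Ccl20, also called MIP-3 alpha, is released by keratinocytes and draws CCR6-bearing T cells, including interleukin-17 producers, and dendritic cells. Ccl20 (Entrez 20297; chromosome 1, 83116766 to 83119167) stood at 8.98, 10.0 and 6.09 CPM in ecko skin, against 3.0, 4.72 and 4.03 CPM in control skin. All ecko libraries lay above all control libraries, with the female ecko library lowest of its group. The mean was 8.36 ± 2.03 CPM in ecko skin and 3.92 ± 0.87 CPM in control skin (SD, n = 3 each), a log2 fold change of 1.09 (SE 0.22; edgeR adjusted p = 0.0384). The call was lost without any one library other than ecko replicate 3, with adjusted p between 0.0589 and 0.154. Limma-voom gave an adjusted p of 0.0593.

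Ccr6, the receptor of CCL20, stood at 1.91, 2.93 and 3.47 CPM in ecko skin, against 1.56, 1.37 and 1.64 CPM in control skin. The groups did not overlap, and here the female ecko library was the highest library. The log2 fold change of Ccr6 was 0.86 (SE 0.25; edgeR adjusted p = 0.146).

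Because Ccl17 and Ccl20 were the ligands that passed, the 250 bases before the start that RefSeq's promoter table for GRCm38.p6 gives each gene are shown here, 5′ to 3′ on the gene's strand. The Ccl17 window is chr8:94810203-94810452, whose start lies inside the longer RefSeq gene span given above. Capitals mark letters that read TTC, 4 bases of any kind and GAA at -154 to -145, and TTC, 3 bases of any kind and GAA at -99 to -91, the spacings that STAT proteins are known to bind.
Ccl17: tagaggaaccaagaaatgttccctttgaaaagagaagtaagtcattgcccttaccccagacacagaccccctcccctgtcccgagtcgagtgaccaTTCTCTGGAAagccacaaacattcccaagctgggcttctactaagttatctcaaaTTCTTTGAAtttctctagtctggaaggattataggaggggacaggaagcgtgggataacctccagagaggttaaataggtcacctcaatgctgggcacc
The Ccl20 window is chr1:83116516-83116765. Capitals mark letters that read GGG, 3 bases of any kind and TTCC on the opposite strand, at -80 to -71, a form of the kB site that NF-kB binds.
Ccl20: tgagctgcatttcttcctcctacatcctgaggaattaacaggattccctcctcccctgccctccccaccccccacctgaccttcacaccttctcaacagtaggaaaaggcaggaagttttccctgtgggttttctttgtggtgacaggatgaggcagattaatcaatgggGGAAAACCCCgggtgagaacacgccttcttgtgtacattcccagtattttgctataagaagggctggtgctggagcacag
Such a match is a description of the letters and does not show binding.

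Each motif was searched on both strands of the 250 bases before the start, in 27025 genes. Of the 52 chemokine and receptor genes, 40 had such a window, and these are not the same 40 as the tested genes. GGG, 3 bases of any kind and TTCC stood in 8 of the 40 windows (20%), against 4.6% of all windows. TTC and GAA with 3 bases between stood in 3 of 40 (Ccl17, Ccr6 and Cxcl14), against 7.18% of all windows. With 4 bases between, they stood in 1 (Ccl17), against 5.86%. The interferon-response form, TTTC, 2 bases of any kind and TTTC, stood in 3 of 40 (Ccl19, Cxcl10 and Cxcl14), against 3.04% of all, and TATAAA in 11 of 40, against 13% of all. The 8 windows held 16 matches of the kB form, some of them overlapping on opposite strands. Of the 8 genes, 7 are ligands, as are 31 of the 52. Cxcl1, Cxcl2 and Cxcl3 lie with Cxcl5 in a 146.6 kb cluster on chromosome 5, so their matches are not independent. For each of the 8 genes the match nearest the start is shown with 5 flanking bases on each side. It is given in the direction of the motif, with its 10 letters in capitals.
Cxcl1, chr5:90891170-90891189: ggccaGGGAAATTCCcggag
Cxcl2, chr5:90903816-90903835: tccccGGGCTTTTCCagaca
Cxcl3, chr5:90786046-90786065: ggctcGGGCTCTTCCagtca
Cxcl10, chr5:92348979-92348998: ttacaGGGGACTTCCctcgg
Ccl1, chr11:82179993-82180012: gccttGGGAACTTCCccaag
Ccl9, chr11:83578657-83578676: gacttGGGGCTTTCCaaagt
Ccl20, chr1:83116681-83116700: cacccGGGGTTTTCCcccat
Ccr3, chr9:124021787-124021806: aatgtGGGAATTTCCtctta
Of these 8 genes, edgeR called Ccl20 higher, and Cxcl1 and Ccl9 were tested and missed the threshold. The remaining 5 did not reach the filter on low counts. Among the 8, DESeq2 called Ccl9, Ccl20 and Cxcl10 higher.

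Ccr2 is carried by inflammatory monocytes and by dermal cells derived from them, and its ligands in the mouse include CCL2, CCL7 and CCL12. Ccr2 (Entrez 12772; chromosome 9, 124101918 to 124109140) stood at 35.7, 38.2 and 37.2 CPM in ecko skin, against 20.9, 23.6 and 26.3 CPM in control skin. The 3 ecko libraries were nearly equal and all lay well above the highest control. The mean was 37.0 ± 1.25 CPM in ecko skin and 23.6 ± 2.71 CPM in control skin (SD, n = 3 each), 1.57-fold, a log2 fold change of 0.65 (SE 0.09; edgeR adjusted p = 0.00907). Among the 15 alternative settings the call was lost only without ecko replicate 2, where the log2 fold change was 0.63 and the adjusted p 0.0627.

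Of 9 CC ligands of monocytes and macrophages, 7 were tested, all 7 with log2 fold changes above 0 (median 0.64), against 49.5% of all tested genes. Of these 7, edgeR called 0, with 6 higher at an unadjusted p under 0.05, where 7.41% of all tested genes were. DESeq2 called Ccl6 and Ccl9, where it called 1.27% of all genes higher. The 4 monocyte chemoattractants among the 7, neighbours on chromosome 11, each had a higher mean in ecko skin. Ccl2, or MCP-1, stood at 5.10, 3.65 and 2.35 CPM in ecko skin, against 1.67, 2.85 and 3.01 CPM in control skin, and the groups overlapped (log2 fold change 0.56, SE 0.30; edgeR adjusted p = 0.427). Ccl7, or MCP-3, stood at 13.2, 5.59 and 5.03 CPM in ecko skin, against 3.81, 4.15 and 5.39 CPM in control skin. Its log2 fold change of 0.83 (SE 0.34; edgeR adjusted p = 0.291) rested on ecko replicate 1 and was 0.25 without it. Ccl12, the mouse MCP-5, stood at 1.91, 1.27 and 1.34 CPM in ecko skin, against 0.231, 0.341 and 1.08 CPM in control skin, with no overlap (log2 fold change 1.44, SE 0.46; edgeR adjusted p = 0.182). Without control replicate 3, its highest control, Ccl12 was called, at 2.37 with an adjusted p of 0.0224.

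Ccl8, or MCP-2, is a CCR8 ligand in the mouse and a product of dermal macrophages. It stood at 57.2, 42.7 and 37.0 CPM in ecko skin, against 20.6, 36.4 and 31.0 CPM in control skin. The groups did not overlap, but the lowest ecko and the highest control libraries were nearly equal (log2 fold change 0.64, SE 0.20; edgeR adjusted p = 0.176). Its receptor Ccr8 had 3 to 10 reads a library and was not tested.

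Markers of macrophages and monocytes also had higher means in ecko skin. The 11 markers, all tested, summed to 909, 912 and 918 CPM in ecko skin, against 550, 908 and 841 CPM in control skin, with control replicate 1 far below the rest. All 11 had log2 fold changes above 0, against 49.5% of all tested genes, with a median of 0.27. Of the 11, edgeR called 0 and DESeq2 called Ly6c2. At an unadjusted edgeR p under 0.05, 3 were higher, where 7.41% of all tested genes were. Ly6c2, which marks inflammatory monocytes, stood at 2.72, 0.83 and 0.783 CPM in ecko skin, against 0.173, 0.171 and 0.17 CPM in control skin (log2 fold change 3.01, SE 0.66; edgeR adjusted p = 0.06). Its reads may be shared with its close copy Ly6c1. What part these cells have in the Ccr2 result was not tested. Without control replicate 1 the log2 fold change of Ccr2 was 0.57 with an edgeR adjusted p of 0.0162.

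**Figure D2:**
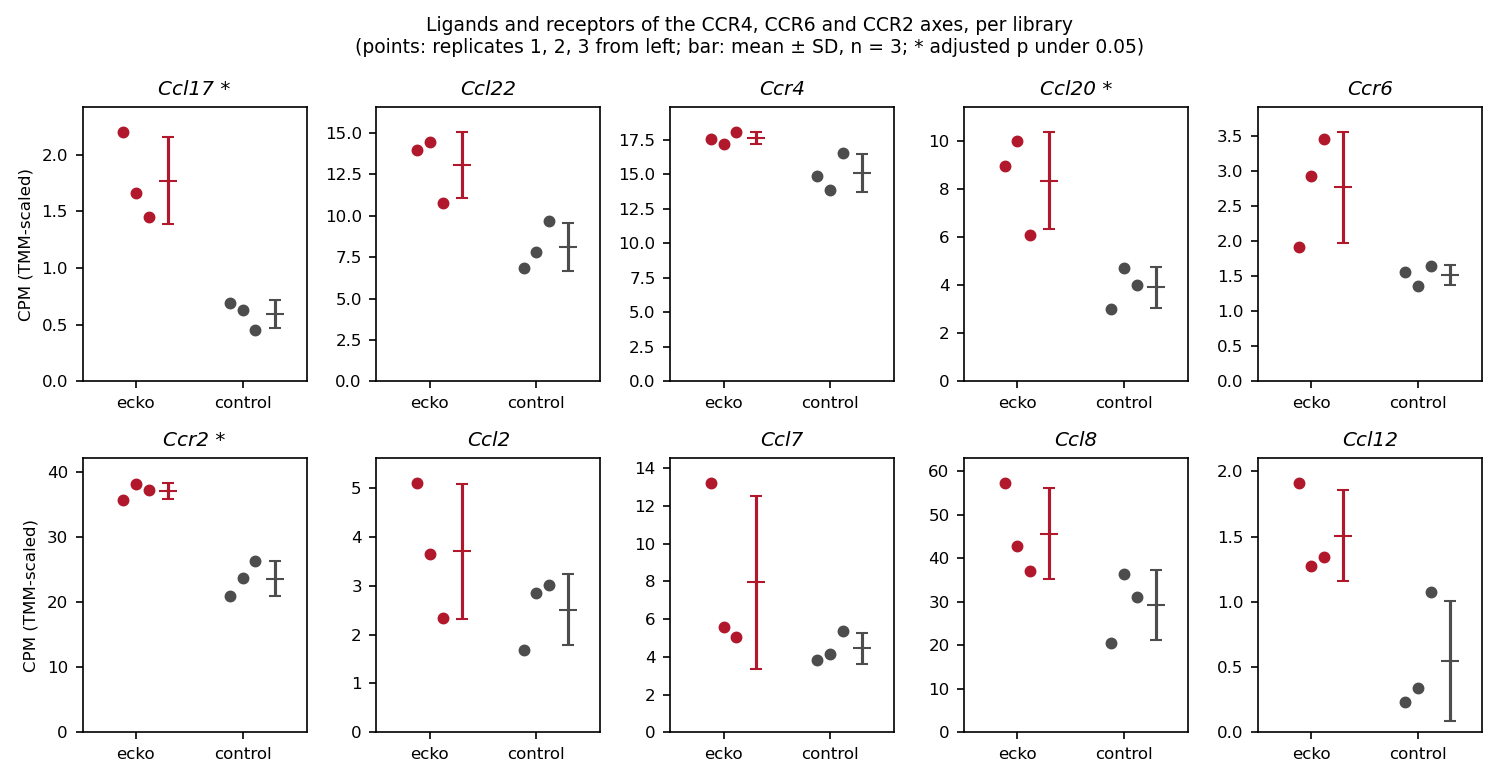
CPM in each ecko and control library for ligands and receptors of the CCR4, CCR6 and CCR2 axes, and for Ccl8, a CCR8 ligand in the mouse. The group mean and SD (n = 3 each) stand beside the points, and an asterisk marks genes past the adjusted threshold. Ecko libraries lie above all control libraries for Ccl17, Ccl22, Ccr4, Ccl20, Ccr6, Ccr2, Ccl8 and Ccl12, and the groups overlap for Ccl2 and Ccl7.

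Ccl6 and Ccl9 are macrophage inflammatory ligands that bind CCR1. Ccl6 stood at 58.2, 62.4 and 61.6 CPM in ecko skin, against 39.1, 57.4 and 38.3 CPM in control skin. Ccl9, its neighbour and close relative, stood at 67.2, 70.2 and 76.5 CPM in ecko skin, against 37.9, 63.0 and 43.7 CPM in control skin. In both genes the ecko libraries lay above the controls, and control replicate 2 came nearest to them. On the log2 scale the fold change was 0.43 (SE 0.14; edgeR adjusted p = 0.174) for Ccl6 and 0.57 (SE 0.16; edgeR adjusted p = 0.125) for Ccl9. Without control replicate 2 both were called, with adjusted p of 0.00655 for Ccl6 and 0.00717 for Ccl9.

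Ccl5, or RANTES, which draws T cells and monocytes, stood at 1.45, 0.996 and 1.12 CPM in ecko skin, against 0.577, 0.626 and 0.284 CPM in control skin. Its groups did not overlap (log2 fold change 1.25, SE 0.35; edgeR adjusted p = 0.13). Ccl3 and Ccl4, the classical macrophage inflammatory proteins, had at most 10 and 3 reads a library and were not tested.

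Ccr1, the receptor of CCL6 and CCL9 on monocytes, macrophages and other myeloid cells, did not pass in edgeR. Ccr1 stood at 3.82, 4.04 and 5.14 CPM in ecko skin, against 0.751, 2.62 and 2.49 CPM in control skin. Its groups did not overlap, and control replicate 1 was the lowest library. On the log2 scale its fold change was 1.14 (SE 0.34; edgeR adjusted p = 0.155), and without control replicate 1 it was 0.77. DESeq2 called Ccr1, with an adjusted p of 0.0447.

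Of 12 receptors of the CC, CX3C and XC classes, 9 were tested, 8 with log2 fold changes above 0 (median 0.65) and Ccr2 the 1 called. Among all tested genes, 49.5% were above 0 and 0.686% were called higher. Ccr7 takes mature dendritic cells and T cells into lymphatic vessels towards CCL21 and CCL19. It stood at 2.95, 2.38 and 1.34 CPM in ecko skin, against 0.693, 0.911 and 1.13 CPM in control skin. The groups did not overlap, and the female ecko library lay close to the highest control (log2 fold change 1.28, SE 0.33; edgeR adjusted p = 0.111). Ccl19 stood at 4.35, 2.93 and 1.90 CPM in ecko skin, against 1.85, 3.30 and 2.72 CPM in control skin, and the groups overlapped (log2 fold change 0.22, SE 0.31; edgeR adjusted p = 0.805). Some reads of Ccl19 were divided between genes by estimate.

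The Ccl21 genes, outside the 52, encode the CCR7 ligand made by lymphatic endothelium, and they went the other way. Ccl21a stood at 67.1, 62.3 and 62.2 CPM in ecko skin, against 102, 100 and 142 CPM in control skin (log2 fold change -0.85, SE 0.12; edgeR adjusted p = 0.00968). Ccl21c was also called lower, at -1.16 (SE 0.17; edgeR adjusted p = 0.00941). Without ecko replicate 2 neither passed, with adjusted p of 0.0675 for Ccl21a and 0.0663 for Ccl21c, and without ecko replicate 3 Ccl21a had 0.0568. The copies are nearly identical, so how reads were split between them is uncertain. The 5 lymphatic endothelial markers summed to 143 to 156 CPM in ecko skin, against 179 to 209 CPM in control skin, and 3 of them were called lower. Their part in the Ccl21 values was not tested.

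The ELR-bearing CXC ligands bind CXCR2 and draw neutrophils. Cxcl1, or KC, was the only one of the 4 with enough reads for the test, at 2.38, 0.83 and 1.12 CPM in ecko skin, against 0.635, 0.683 and 0.794 CPM in control skin. The groups did not overlap but came close, and ecko replicate 1 stood apart from the rest (log2 fold change 1.02, SE 0.42; edgeR adjusted p = 0.284). Cxcl5 had 15, 12 and 1 reads in ecko skin, against 2, 1 and 4 reads in control skin. Cxcl2 had 23, 10 and 6 reads in ecko skin against 1, 14 and 7 in control skin, and Cxcl3 had 12, 8 and 1 reads in ecko skin against 4, 3 and 3 in control skin. In all 3 of these genes the female ecko library had the fewest reads of its group and overlapped the controls.

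Cxcr2, their receptor, stood at 10.1, 7.36 and 5.98 CPM in ecko skin, against 4.62, 5.01 and 4.14 CPM in control skin. All ecko libraries lay above all control libraries (log2 fold change 0.77, SE 0.19; edgeR adjusted p = 0.0961). DESeq2 called Cxcr2 higher. Of 11 neutrophil markers, 3 had enough reads for the test, of which edgeR and DESeq2 called 0 and 2 were higher at an unadjusted p under 0.05. The 11 summed to 93.0, 163 and 24.8 CPM in ecko skin, against 26.4, 19.8 and 37.3 CPM in control skin, mostly S100a8 and S100a9, which keratinocytes also make. All 3 tested markers had log2 fold changes above 0 and overlapping groups, with Csf3r at 0.62 (SE 0.32, edgeR adjusted p = 0.399). Among the untested, Elane was at 0 in all 6 libraries, and Ly6g was at 0 in 5 of them and 0.112 CPM in ecko replicate 3. Retnlg had 8, 8 and 8 reads in ecko skin against 1, 7 and 2 in control skin. Ltf went the other way, with 8, 5 and 2 reads against 4, 19 and 21. The part of neutrophils in the Cxcr2 values was not tested.

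Cxcl9 and Cxcl10 are induced by interferon gamma and draw CXCR3-bearing T cells. Cxcl9 stood at 24.3, 1.83 and 3.02 CPM in ecko skin, against 0.924, 1.08 and 1.93 CPM in control skin. One library, ecko replicate 1, was far above the other 5, and the groups overlapped. The log2 fold change of 2.87 (SE 0.93; edgeR adjusted p = 0.187) had the largest value of the 40 and was 0.88 without ecko replicate 1. Cxcl10 had 76, 8 and 14 reads in ecko skin, against 2, 4 and 5 in control skin, and did not reach the filter. Its groups did not overlap, and the same library was highest. With no filter edgeR gave Cxcl10 a log2 fold change of 3.11 (SE 0.89) and an adjusted p of 0.142, and DESeq2 called it, at 3.17 with an adjusted p of 0.00434. Cxcl10 overlaps the gene Art3 on the chromosome.

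Cxcr3, the receptor of both, stood at 1.22, 1.16 and 0.95 CPM in ecko skin, against 0.866, 0.512 and 0.737 CPM in control skin, with no overlap (log2 fold change 0.65, SE 0.30; edgeR adjusted p = 0.336). Ecko replicate 1 was close to the other ecko libraries in this gene.

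The homeostatic ligands Cxcl12 and Cxcl14 had small differences. Cxcl12, the stromal CXCR4 ligand, stood at 166, 168 and 179 CPM in ecko skin, against 150, 171 and 195 CPM in control skin. The groups overlapped (log2 fold change -0.01, SE 0.09; edgeR adjusted p = 0.981). Its receptor Cxcr4 stood at 9.15, 11.7 and 8.50 CPM in ecko skin, against 8.60, 9.39 and 7.88 CPM in control skin, and also overlapped (log2 fold change 0.18, SE 0.14; edgeR adjusted p = 0.6). Cxcl14, made by keratinocytes and fibroblasts, stood at 104, 101 and 93.3 CPM in ecko skin, against 87.1, 79.6 and 82.2 CPM in control skin. Its groups did not overlap, with a log2 fold change of 0.26 (SE 0.06; edgeR adjusted p = 0.0869), and DESeq2 called it higher.

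The membrane-bound ligands were on opposite sides of 0. Cxcl16, made by macrophages, dendritic cells and keratinocytes, stood at 33.5, 27.9 and 28.8 CPM in ecko skin, against 22, 23.9 and 25.5 CPM in control skin (log2 fold change 0.34, SE 0.09; edgeR adjusted p = 0.129). Its receptor Cxcr6 stood at 3.24, 2.88 and 3.41 CPM in ecko skin, against 2.48, 2.05 and 2.55 CPM in control skin (log2 fold change 0.43, SE 0.18; edgeR adjusted p = 0.291). In both genes every ecko library lay above every control library. Cx3cl1, or fractalkine, which endothelial and epithelial cells display, stood at 15.1, 12.5 and 14.6 CPM in ecko skin, against 17.5, 17.9 and 16.4 CPM in control skin. It was the one tested gene of the 40 whose ecko libraries all lay below the controls (log2 fold change -0.29, SE 0.10; edgeR adjusted p = 0.208). Beside it, the 6 endothelial markers summed to about 176 CPM in every ecko library, against 273 to 297 CPM in control skin, and their part in the Cx3cl1 values was not tested. The receptor Cx3cr1 overlapped between groups, at 2.24 to 2.95 CPM in ecko skin and 1.82 to 2.55 CPM in control skin (log2 fold change 0.29, SE 0.21; edgeR adjusted p = 0.57).

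Ccl11 and Ccl24, the eotaxins that attract eosinophils, overlapped between groups. Ccl11 stood at 14.5, 11.6 and 13.5 CPM in ecko skin, against 9.64, 12.5 and 12.4 CPM in control skin (log2 fold change 0.19, SE 0.13; edgeR adjusted p = 0.54). Ccl24 ranged from 2.63 to 4.58 CPM in ecko skin and from 2.33 to 3.52 CPM in control skin (log2 fold change 0.30, SE 0.25; edgeR adjusted p = 0.652). Together, 8 eosinophil and mast cell markers summed to 504 to 568 CPM in ecko skin and 426 to 533 CPM in control skin, with 0 called by edgeR or DESeq2 and Epx, a defining eosinophil gene, at 0 in every library. Other tested ligands were Ccl25, Ccl28 and Xcl1, which act on gut-homing cells, mucosal cells and cross-presenting dendritic cells. Their log2 fold changes were -0.28 for Ccl25, 0.21 for Ccl28 and -0.40 for Xcl1, with standard errors of 0.32, 0.22 and 0.34 and overlapping groups. The receptors Ccr9 and Xcr1, which pair with CCL25 and XCL1, had 0.08 (SE 0.19) and -0.04 (SE 0.25), also with overlap.

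The 5 atypical receptors had log2 fold changes from -0.17 to 0.44, with a median of 0.03. Ackr3, a scavenger of CXCL12, stood at 48.8, 50.4 and 49.9 CPM in ecko skin, against 42.7, 48.1 and 48.0 CPM in control skin. Every ecko library was above every control, but by a small margin (log2 fold change 0.10, SE 0.07; edgeR adjusted p = 0.515). Ackr4, which scavenges CCL19, CCL21 and CCL25, stood at 67.8, 62.6 and 65.4 CPM in ecko skin, against 74.1, 59.3 and 57.9 CPM in control skin (log2 fold change 0.03, SE 0.09; edgeR adjusted p = 0.914). Ackr1, the Duffy receptor of venules, stood at 9.68, 10.0 and 8.0 CPM in ecko skin, against 10.6, 11.8 and 8.73 CPM in control skin, and overlapped (log2 fold change -0.17, SE 0.14; edgeR adjusted p = 0.641). Ackr2, the scavenger of inflammatory CC chemokines on lymphatic endothelium, was at -0.01 (SE 0.13) and Ccrl2 at 0.44 (SE 0.31), both with overlap. Of the 5, edgeR and DESeq2 called 0, and 0 had an unadjusted edgeR p under 0.05.

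The other 12 genes did not reach the filter on low counts. Besides Cxcl2, Cxcl3, Cxcl5, Cxcl10, Ccl3, Ccl4 and Ccr8, these were Ccl1, Ccr3, Ccr10, Cxcl13 and Cxcl17. Their totals over the 6 libraries were 32 reads for Ccl1, 21 for Ccr3, 47 for Ccr10, 14 for Cxcl13 and 10 for Cxcl17, and a difference in these 5 was not detectable at this depth. Cxcl17 had 0 reads in control replicate 2, where the limit of 3 reads that a count of 0 allows is 0.171 CPM, for counting error only. Ccr3 is the eosinophil receptor, Ccr10 pairs with the keratinocyte chemokine CCL27, and Cxcl13 draws B cells.

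The libraries were not equal within a group. The mean level of the 40 tested genes, as a deviation from each gene's own mean in log2(CPM + 0.5), was 0.42, 0.14 and 0.08 in ecko skin, against -0.35, -0.15 and -0.14 in control skin. Ecko replicate 1 was the highest library for 20 of the 40 genes (50.0%), against 15.6% of all tested genes, and control replicate 1 the lowest for 20 (50.0%), against 21.2%. Ecko replicate 1 was the highest and control replicate 1 the lowest library for each of Ccl2, Ccl7, Ccl8, Ccl12 and Cxcl9. Macrophage markers summed to 909, 912 and 918 CPM in ecko skin, against 550, 908 and 841 CPM in control skin. By this sum control replicate 1 was lowest of all, but ecko replicate 1 was not the highest of its group. Without ecko replicate 1 the median log2 fold change of the tested genes was 0.26.

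**Figure D3:**
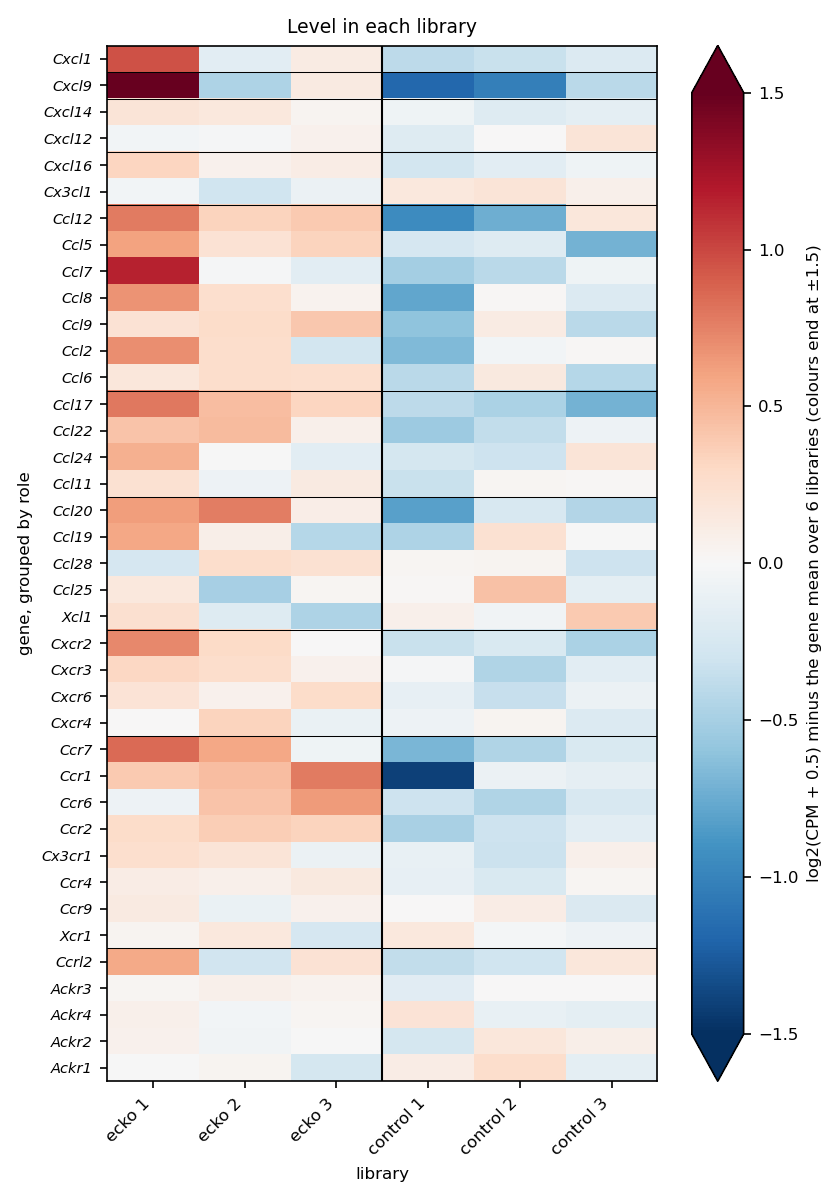
Level of 39 of the 40 tested genes in each library, as the deviation from the gene's mean in log2(CPM + 0.5), with ecko libraries left of control libraries and genes grouped by role; colours end at 1.5 in either direction. Ecko replicate 1 is the strongest column on the high side and control replicate 1 on the low side, and Cxcl9 in ecko replicate 1 goes past the end of the scale.

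The ecko effect did not pass a test for a difference between sexes in any of the 40 genes. In edgeR with a sex by genotype term, 0 of 40 were called, the lowest adjusted p was 0.733, and DESeq2 and limma-voom also called 0. Over all tested genes 5 (0.0336%) were called. An unadjusted p under 0.05 was reached by 5 of the 40 (12.5%), against 6% of all tested genes. The female minus male difference in the ecko effect was below 0 for 29 of the 40 (72.5%), against 49.1% of all tested genes. With 1 female library in each group this test has little power. Among the 4 male libraries 34 of the 40 tested genes had a higher ecko level, with a median log2 fold change of 0.51, and Ccr2 (0.73, adjusted p = 0.0259) and Ccl22 (0.95, adjusted p = 0.0253) passed edgeR. In the single female pair, which allows no test, 29 of the 40 were higher in the ecko library, with a median log2 difference of 0.21. The female pair's difference was 0.50 for Ccr2, 1.68 for Ccl17, 0.60 for Ccl20 and 0.15 for Ccl22.

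Levels of different genes were compared per kilobase of merged exon. Ccl8 was the highest of the 52, at 89.3 CPM per kb in ecko skin and 57.4 CPM per kb in control skin. Cxcl14 followed at 54.5 CPM per kb in ecko skin and 45.4 CPM per kb in control skin, then Ccl6 at 33.8 in ecko skin and 25.1 in control skin. Next in ecko skin was Ccl9, at 23.4 CPM per kb, against 15.8 in control skin. The ranges of Ccl8 and Cxcl14 overlap in control skin, where Ccl8 had 40.3, 71.2 and 60.6 CPM per kb, so their order there is not beyond the spread. Cxcl12, which lay above Ccl9 in control skin, had 20.9 CPM per kb in ecko skin and 21.0 CPM per kb in control skin. Among receptors, Ackr3 was highest, at 14.9 CPM per kb in ecko skin and 13.8 in control skin. Ackr4 followed at 12.1 in ecko skin and 11.9 in control skin, then Ackr1 at 6.57 in ecko skin and 7.37 in control skin. The signalling receptors Ccr4, Ccr2 and Cxcr4 lay between 5.41 and 5.69 in ecko skin and 3.49 and 4.87 in control skin. The lowest was Ccr3, at 0.0693 CPM per kb in ecko skin and 0.0522 in control skin. Over the 52 genes the median was 1.64 CPM per kb in ecko skin and 0.857 in control skin. These medians can fall on different genes, so their ratio is not a typical fold change. The median log2 fold change of the tested genes was 0.43. Of the 3 called genes, Ccl20 had 5.89 CPM per kb in ecko skin and 2.76 in control skin, Ccr2 5.48 and 3.49, and Ccl17 3.45 and 1.15.

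**Figure D4:**
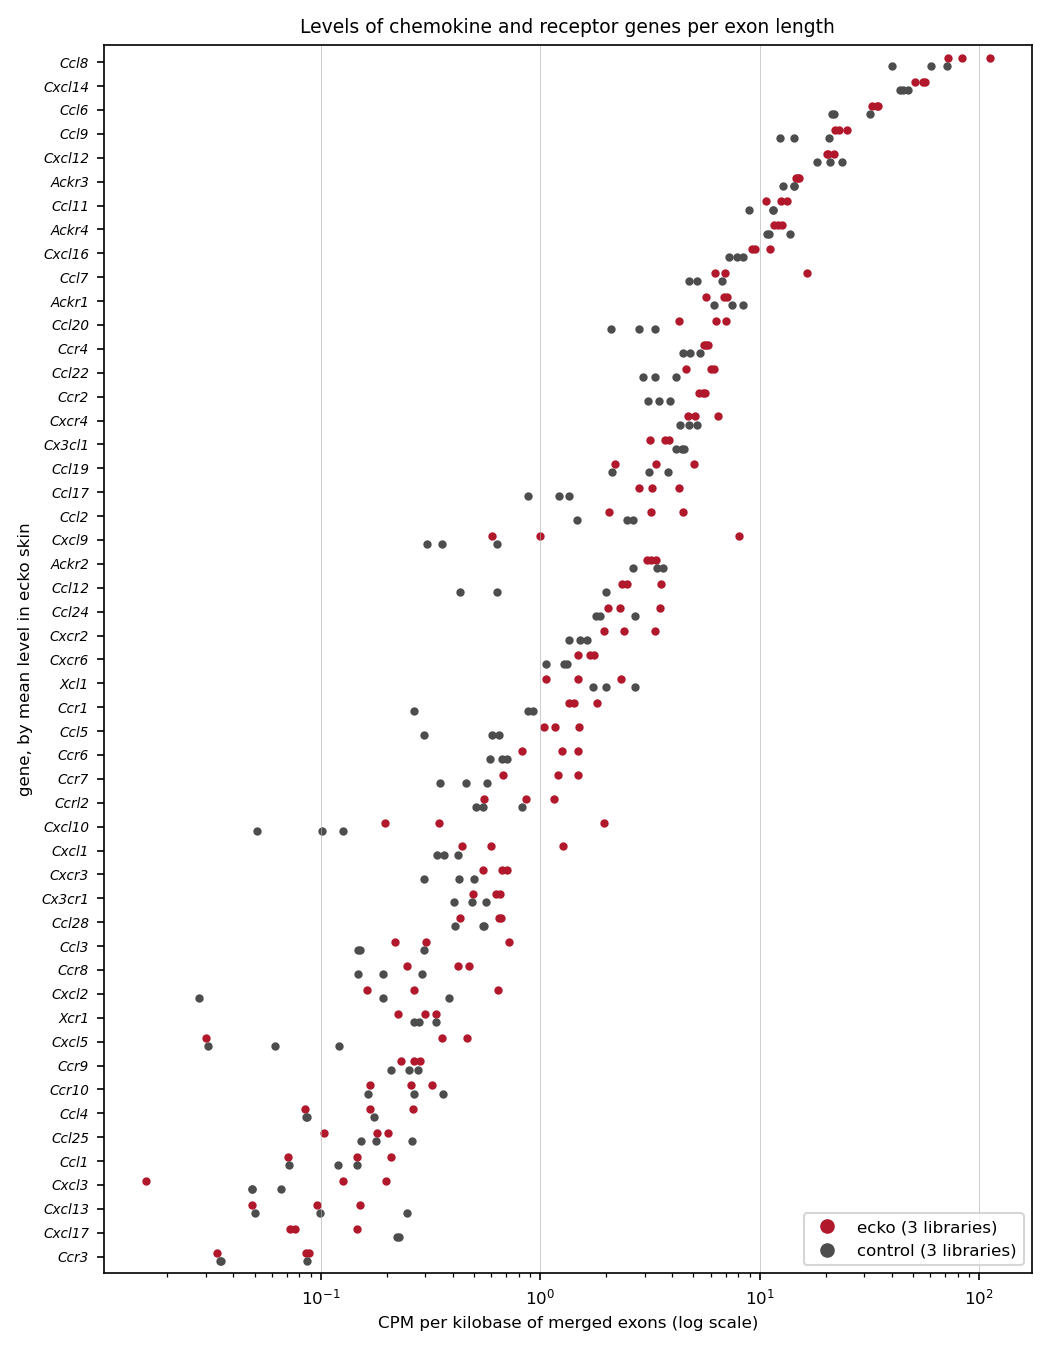
Level of 51 of the 52 genes in every library, in CPM per kb of merged exon on a log axis, with ecko and control libraries in different colours. Genes are ordered by their mean in ecko skin, from Ccr3 (0.0693 CPM per kb) to Ccl8, at 72.4 to 112 CPM per kb in ecko skin and 40.3 to 71.2 in control skin; control replicate 2 of Cxcl17, with 0 reads, cannot be drawn.

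Many of these genes lie side by side in the genome, and neighbours were grouped where the gap was at most 250 kb. In GRCm38.p6, Ccl2, Ccl7, Ccl11, Ccl12, Ccl8 and Ccl1 span 144.2 kb of chromosome 11 (82035577 to 82179812). Of these, 5 were tested and all 5 had log2 fold changes above 0, from 0.19 to 1.44. Ccl5, Ccl9, Ccl6, Ccl3 and Ccl4 span 138.9 kb of the same chromosome (83525778 to 83664683), and the 3 tested ranged from 0.43 to 1.25. On chromosome 9, the receptors Ccr9, Cxcr6, Xcr1, Ccr1, Ccr3 and Ccr2 lie in one cluster that begins at 123767211, and log2 fold changes of those tested went from -0.04 for Xcr1 to 1.14 for Ccr1. Cx3cl1, with a negative log2 fold change of -0.29, lies between Ccl22 and Ccl17 on chromosome 8 (94745684 to 94812038). Neighbours in a cluster are not independent of one another.

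Genes that act before and after the chemokines were taken from lists by role. Of 10 tested upstream cytokines, 2 were called higher and 0 lower, against 0.686% higher and 1.08% lower of all tested genes. Both were interleukin-36 family members made by keratinocytes. Il1f6, or IL-36 alpha, stood at 37.8, 39.5 and 33.7 CPM in ecko skin, against 14.8, 14.6 and 16.4 CPM in control skin (log2 fold change 1.28, SE 0.09; edgeR adjusted p = 0.000454). Il1f9, or IL-36 gamma, averaged 121 ± 9.22 CPM in ecko skin and 86.3 ± 3.39 CPM in control skin (SD, n = 3 each). The log2 fold change of Il1f9 was 0.49, with an SE of 0.07 and an edgeR adjusted p of 0.0093. Neither of these genes overlapped between groups. The median log2 fold change of the 10 was 0.42.

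Of 10 regulators of NF-kB and of chemokine mRNA, all tested, 2 were called higher and 0 lower. Over all tested genes the shares were 0.686% higher and 1.08% lower. Nfkbiz, the NF-kB cofactor I kappa B zeta, stood at 88.7, 88.5 and 66.8 CPM in ecko skin, against 48.6, 41.2 and 49.7 CPM in control skin (log2 fold change 0.81, SE 0.12; edgeR adjusted p = 0.00968). Zc3h12a, or regnase-1, which cuts cytokine mRNAs, stood at 97.4, 95.3 and 55.2 CPM in ecko skin, against 37.0, 38.3 and 49.9 CPM in control skin (log2 fold change 0.99, SE 0.20; edgeR adjusted p = 0.0426). In both, all ecko libraries lay above the controls and the female ecko library was the nearest to them. In edgeR, Nfkbiz missed the threshold without ecko replicate 1, at an adjusted p of 0.0556, and without ecko replicate 2, at 0.0663. Zc3h12a missed it without either of these or without control replicate 1 or 2, with adjusted p between 0.112 and 0.166, in limma-voom (0.0651) and with a sex term (0.0597). The median of this list was 0.21.

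Downstream of the receptors, 0 of 30 tested genes of G protein and arrestin signalling were called by edgeR or DESeq2 in either direction. At an unadjusted edgeR p under 0.05, 8 of the 30 were higher and 1 lower, where 7.41% and 7.95% of all tested genes were. The log2 fold change was above 0 for 21 of the 30, against 49.5% of all tested genes, with a median of 0.07. Every ecko library lay above every control library in 12 of the 30 and below in 2, against 10.2% and 10.8%. Of 10 tested genes that cleave or present chemokines, 0 were called by either tool, with 0 higher and 1 lower at an unadjusted p under 0.05 and a median of 0.06. Of 9 tested genes of other chemoattractants, the 2 called were the Ccl21 copies, both lower, where 1.08% of all tested genes were called lower. The other chemokines outside the naming rule were not called. Ccl27a had a log2 fold change of 0.30 (SE 0.11, edgeR adjusted p = 0.231) with no overlap. Ccl27b was at -0.36 (SE 0.14, edgeR adjusted p = 0.278) and Pf4 at 0.03 (SE 0.18), both with overlap, and Ppbp was not tested. The 8 Langerhans and dendritic cell markers summed to 1610 to 1787 CPM in ecko skin and 1412 to 1623 CPM in control skin, with 0 called by either tool and 1 higher at an unadjusted p under 0.05. The keratinocyte markers, of which Krt1 was called higher (edgeR adjusted p from 0.0224 to 0.133 with one library left out), summed to more in every ecko library than in any control library. Krt10 was the largest part of that sum, at a mean of 14477 CPM in ecko skin and 13175 CPM in control skin. Only Krt1 and Krt10, 2 of the 6, did not overlap between groups, and Lor was below 0, at -0.19. The part of keratinocytes in the Ccl20 and interleukin-36 values was not tested.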

How the data were processed

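RNA from snap-frozen ear skin was poly(A)-selected and made into circular single-stranded libraries, per the labels' protocols, which name no strand-marking step. The deposited table gives the expected count of each gene in each library, an estimate that RSEM makes and that the authors did not scale; 10.5% of its values were not whole. The submitters' processing notes name RSEM 1.3.1, HISAT2 2.2.1 and Bowtie2 2.4.5, and GRCm38.p6 as build. Annotation release, strand setting and read length are not stated in the labels or headers used here. Reads of overlapping genes (such as Cxcl10 with Art3, Ccl25 with Elavl1 and Ackr4 with Acad11) cannot be told apart without strand. Counts of Ackr1, Ccl19, Cxcl16 and Cxcr2, 4 of the 52 genes, were partly divided by estimate.

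Counts were rounded, filtered with filterByExpr (minimum count 10), which kept 14866 genes, and scaled by TMM. The test was glmQLFit and glmQLFTest of edgeR 4.0.16 in R 4.3.3, with genotype as the only term, over all 6 libraries and with Benjamini-Hochberg adjustment. The standard error was the size of the log2 fold change divided by the square root of F. CPM used TMM-scaled totals, and a library with at least 500 reads of Y-linked genes was read as male. No library was a duplicate of another, since within groups the variance of counts was 4.89 to 14.8 times that of sampling. Alternatives were RLE and upper-quartile scaling, DESeq2 1.42.0, limma-voom (limma 3.58.1), 2 other filters, a replicate block, a sex term, male libraries only, a threshold of 0.1, and each library left out. Coordinates and promoters came from RefSeq, where 18370 gene identifiers matched, and exon lengths from GENCODE M21.

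Values per library are given for genes past the threshold, tested genes with an unadjusted p under 0.05, the 2 most abundant genes of each role, and the partner ligand or receptor of a called gene. Some others, such as Cxcl10, were added after their values were seen. The genes and lists were chosen with earlier results of these data known. Values of 1 of the 52 genes, which is in the counts and medians, are not reported here.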

Additional observations from a re-analysis of the deposited data

How the results depend on the processing

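The number of chemokine and receptor genes called higher was 3 in the reported fit, 11 in DESeq2, 6 at an adjusted p under 0.1, and 0 to 3 with one library left out. The number called lower was 0 in every setting run. Over all genes, against 102 higher and 160 lower, DESeq2 gave 195 higher, male libraries alone gave 91 lower, an adjusted p under 0.1 gave 182 higher and 269 lower, and leaving out one library gave 22 to 165 higher and 34 to 242 lower. The genes of the pathway lists, 4 higher and 2 lower, gave 2 to 5 higher and 0 to 2 lower with one library left out, and 1 lower in male libraries. The median log2 fold change of the tested chemokine and receptor genes, 0.43, ranged from 0.26 to 0.49 with one library left out. The alternatives for the pathway lists and for the sex test, which gave 0 chemokine genes in each of 6, were chosen after seeing the data. In these settings the cause was not tested, except that fewer libraries were used where some were left out. Whether replicate numbers pair the libraries could not be settled with 3 libraries a group. Same-numbered deviations from the group mean correlated at 0.053, 0.048 and 0.172, and ecko replicate 1 went best with control replicate 2 (0.060). The value of 0.172 joins the female libraries, so pairing by number and by sex cannot be told apart there. A replicate block gave 63 genes higher over the whole table and the same count of 3 among the chemokine genes, with Zc3h12a lost (edgeR adjusted p of 0.0907).

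Of 702 pairs of a gene and an alternative, 640 kept direction and side of the threshold, 28 lost and 13 gained a call, and 21, in 8 genes, changed sign. Ackr2 became 0.0048 in limma-voom, 0.0009 with the replicate block, 0.0376 in male libraries and -0.1281 to 0.0881 with one library left out, and Ackr4 became -0.0335 in male libraries and -0.0321 to 0.1579 with one library left out. Cxcl12 became 0.0574 in male libraries and -0.0949 to 0.0917 with one library left out. In male libraries Ccl28 became -0.0060, Ccr9 -0.0468, Xcl1 0.0256 (against -0.40 with all libraries) and Xcr1 0.0396. With one library left out, Ccl19 ranged from -0.1186 to 0.4665, Ccr9 from -0.0277 to 0.1683 and Xcr1 from -0.17 to 0.1049. Low counts kept 12 of the 52 genes out of the test.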
